A study of Mus musculus with 6 samples.

Results

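The genes described here are the output genes of the circadian clock: Per1, Per2, Per3, Cry1, Cry2, Nr1d1, Nr1d2, Dbp, Tef and Ciart. They were taken by symbol from a table of mouse optic nerve transcripts in TPM (a level scaled within each library and corrected for transcript length), summed to genes. All 10 were found among 35850 genes, and all 10 passed the filter of at least 1 TPM in at least 3 of 6 libraries. The optic nerves came from 6-week-old mice with 1 floxed Nf1 allele, 1 Nf1 allele carrying R681X, and a GFAP-Cre transgene, whose promoter works in glia and their precursors. Both groups shared this genotype, which is used as a model of optic glioma. The control group (3 libraries) received PicoLab 5053, and the obesogenic group (3 libraries) received an AIN-76A formula with 58% of energy from fat, with sucrose; exposure was maternal, going by the title of the series. The diets therefore differ in formula as well as in fat. Separate animals or litters are not stated for the libraries, so p-values measure only a spread among samples that may be technical. The labels used here give no time of day at which a nerve was collected.

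The clock is a feedback loop of transcription that runs in nearly every cell. CLOCK or NPAS2, paired with BMAL1 (gene Arntl), binds E-boxes and switches on Per, Cry, Nr1d1, Nr1d2, Dbp, Tef and Ciart; PER and CRY proteins then hold the activators back. The REV-ERB receptors, made from Nr1d1 and Nr1d2, repress Arntl and Npas2, and DBP and TEF drive genes with D-boxes, where NFIL3 opposes them. In mouse tissues Nr1d1 and Dbp peak during the day, Per2 later, and Arntl and Npas2 at the opposite time, so the balance of output to activator transcripts changes with the hour.

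The promoter sequences below show the kinds of sites through which the loop works, in 3 of the 4 genes that shared their highest libraries (Nr1d1, Ciart and Per1) and in Per3. RefSeq promoter windows (GRCm38.p6, mostly upstream of a gene's start) were found for 9 of the 10 genes. Both strands were searched for the E-box CACGTG, the E-prime box CACGTT, the D-box (TTATGTAA or TTATGCAA) and the ROR element; no match overlapped another. Capitals mark the E-boxes of Ciart, the E-box and D-box of Per1, the E-prime box of Nr1d1 (read on the other strand, AACGTG) and the D-boxes of Per3. Each stretch lies upstream of the start and outside annotated exons, and is written on the gene's strand: Ciart at chr3:95882252-95882369 (minus), Per1 at chr11:69098758-69098947 (plus), Nr1d1 at chr11:98775378-98775430 (minus) and Per3 at chr4:151044791-151044895 (minus).
Ciart: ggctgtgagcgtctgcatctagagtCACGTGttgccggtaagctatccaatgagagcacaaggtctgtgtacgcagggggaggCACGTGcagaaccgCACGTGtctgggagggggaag
Per1: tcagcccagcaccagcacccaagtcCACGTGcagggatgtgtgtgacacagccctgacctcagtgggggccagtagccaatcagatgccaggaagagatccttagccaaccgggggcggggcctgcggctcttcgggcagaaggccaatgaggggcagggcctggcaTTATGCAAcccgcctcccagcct
Nr1d1: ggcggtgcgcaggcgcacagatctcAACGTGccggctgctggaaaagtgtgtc
Per3: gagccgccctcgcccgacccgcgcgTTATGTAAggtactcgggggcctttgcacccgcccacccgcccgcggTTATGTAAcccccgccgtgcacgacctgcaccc
Ciart holds E-boxes that begin 116, 58 and 44 bases before its start. Per1 holds an E-box 166 bases and a D-box 24 bases before its start, and Per3 holds D-boxes 205 and 158 bases before its start. The E-box was in the windows of 4 of 9 output genes (Per1, Cry1, Tef and Ciart), and 8.09% of 27025 genes with a window hold it. The E-prime box was in 3 of 9 (Cry1, Cry2 and Nr1d1; 5.44% of all genes) and the D-box in 2 of 9 (Per1 and Per3; 1.98% of all genes). The ROR element was in 0 of 9, and 0.459% of all genes have it. No window was found for Per2. Dbp, which had the same highest libraries as Nr1d1, and Nr1d2 had windows with none of these motifs. These matches describe letters in a window, not binding.

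What was listed differs between the genes, and this limits several values. For Per2, Nr1d1, Nr1d2, Tef and Ciart every transcript of the GENCODE M21 annotation was in the table. For Per1, Per3, Cry1, Cry2 and Dbp the first reference transcript (Per1-201, Per3-201, Cry1-201, Cry2-201 and Dbp-201) was not analysed here, so their sums rest on the other transcripts. For Cry1, the repressor with the latest peak, 100% of the listed TPM was in retained-intron transcripts. For Per3 that share was 86.3% and for Dbp 75.8%. Levels of these 5 genes are therefore compared only between libraries, and a ratio or mean that includes them is read only for how it differs between libraries.

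Among whole-library features, the listed TPM summed to 788456 to 832193 per library, and TPM keeps no sequencing depth. Obesogenic library 2 had 20.6% of its TPM in immunoglobulin genes and the other libraries at most 0.0439%, which lowers the other values of that library. Markers of the labelled tissue were abundant: the astrocyte filament gene Gfap ranged from 1512 to 5157 TPM and the oligodendrocyte list (10 genes, Mbp among them) summed to 61980 to 69950 TPM on the control diet and 27030 to 55270 TPM on the obesogenic diet. The neuron list (14 genes) summed to 102 to 195 TPM in control and 240 to 1513 TPM in obesogenic libraries. The list of suprachiasmatic neuron markers (12 genes) summed to 436 to 2128 and 1066 to 6710 TPM, and Avp made up most of this sum in every library. In bulk tissue fewer cells of a type and less RNA per cell cannot be told apart.

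Nr1d1 encodes REV-ERB alpha, the receptor that represses Arntl. It measured 188, 178 and 71.3 TPM in libraries 1, 2 and 3 of the control diet, and 175, 77.9 and 76.8 TPM in those of the obesogenic diet. Control libraries 1 and 2 and obesogenic library 1 were high, the other 3 were low, and each diet held libraries of both kinds. The lowest of the high libraries exceeded the highest of the low ones 2.25-fold. After rescaling without immunoglobulin genes this gap was smaller, with 219.9 TPM in obesogenic library 1 and 117.9 TPM in obesogenic library 2. Both listed transcripts of the gene behaved this way: Nr1d1-202, a processed transcript, stood at 6.36, 5.87 and 2.24 TPM on the control diet and at 6.61, 2.25 and 2.59 TPM on the obesogenic diet. Exons of Nr1d1 overlap Thra, a thyroid hormone receptor gene on the other strand, by up to 263 bases, and whether the library kit or the counting kept strand is not given in the sources used here. Thra was listed at 10.1, 15.1 and 15.3 TPM on the control diet and 27.3, 8.06 and 36.7 TPM on the obesogenic diet. The part of Thra reads in the Nr1d1 values was not tested.

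Dbp, the founding D-box activator, was high and low in the same libraries as Nr1d1. It stood at 43.1, 54.5 and 24.0 TPM on the control diet and at 53.5, 23.4 and 23.1 TPM on the obesogenic diet. The gap between the third and the fourth library was 1.80-fold. After rescaling without immunoglobulin genes it was smaller, with 53.9 TPM in control library 1 and 35.3 TPM in obesogenic library 2. The retained-intron transcript Dbp-205 alone gave 17.4, 18.7 and 8.67 TPM against 18.3, 9.34 and 7.99 TPM, the same high and low libraries. Dbp-202 had the same 3 highest libraries, at 20.4, 19.4 and 25.8 TPM, and was listed at 0 in control library 3, 13.6 TPM in obesogenic library 2 and 8.15 TPM in obesogenic library 3. The protein-coding transcript Dbp-204 went another way, at 1.13, 9.54 and 15.3 TPM against 7.07, 0.456 and 6.13 TPM, highest in a library that was low for Dbp as a whole. Dbp-203, also protein coding, was at 4.17, 6.78 and 0 TPM against 2.26, 0 and 0.772 TPM. From protein-coding transcripts only, the diet change of Dbp in the limma fit was -1.30 (SE 0.79, adjusted p = 0.598). Sphk2, whose exons overlap Dbp by up to 539 bases on the other strand, ranged from 14.7 to 19.5 TPM. The part of Sphk2 reads in the Dbp values was not tested.

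Ciart encodes CHRONO, a repressor of the CLOCK and BMAL1 pair. It stood at 45.3, 62.8 and 24.4 TPM on the control diet and at 46.4, 28.8 and 34.9 TPM on the obesogenic diet. Its highest 3 libraries were again control libraries 1 and 2 and obesogenic library 1, with a gap of 1.30-fold to the fourth. The main transcript, Ciart-201, did not keep this order: it was at 26.8 TPM in obesogenic library 3 and at 23.0 TPM in obesogenic library 1.

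Per1, a repressor gene that also responds to acute signals, stood at 26.6, 16.2 and 13.02 TPM on the control diet and at 26.1, 6.55 and 9.97 TPM on the obesogenic diet. The same 3 libraries were highest, with a gap of 1.25-fold. Part of this rests on 1 isoform: Per1-206 was listed at 12.7 TPM in control library 1, at 12.03 TPM in obesogenic library 1 and at 0 in the others. Per1-202 alone measured 13.9, 16.0 and 13.02 TPM against 13.7, 5.54 and 9.97 TPM, where control library 3 lay next to the high libraries.

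**Figure D1:**
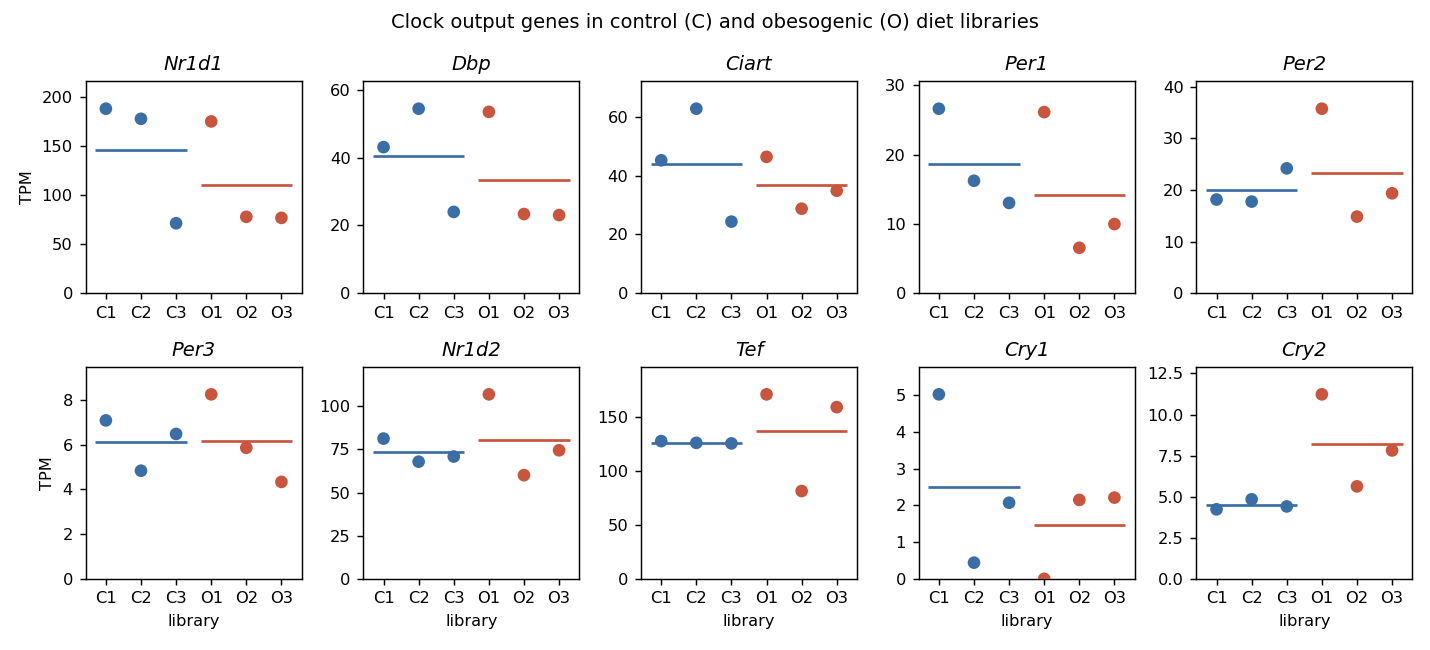
TPM of the 10 clock output genes (y axis, linear from 0) in each library (x axis; C, control diet, blue; O, obesogenic diet, red), with a line at each diet's mean. Nr1d1, at 188, 178 and 175 TPM in C1, C2 and O1 and at 71.3 to 77.9 TPM in the other 3 libraries, has high and low libraries in both diets.

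The likeness of profiles was measured as the root mean square difference of log2(TPM + 1) over the 6 libraries, each gene centred on its own mean; libraries share their scaling, and values are descriptive. Among 8171 other genes with an established symbol and a mean of at least 10 TPM, Nr1d1 ranked 3 in likeness to Dbp (0.17 log2 units), Ciart 15 (0.24) and Per1 368 (0.39). Per2, Tef and Nr1d2 ranked 2852, 2261 and 969. The nearest non-member genes were Pan3, Rnf215, Tln2, Siglech and Slc6a9, at 0.17 to 0.19 log2 units. After each library in turn was left out, the rank of Nr1d1 lay between 1 and 24 and that of Ciart between 11 and 170, the latter without control library 3. That of Per1 was 137 with control library 1 left out and 1820 with obesogenic library 3 left out, its extremes.

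The spread within a diet differed among the output genes. Nr1d1, Dbp, Ciart and Per1 were grouped by their high and low libraries inside each diet, so a large spread is partly built in. The pooled within-diet SD of log2(TPM + 1) was 0.76 for Per1, 0.73 for Nr1d1, 0.64 for Dbp and 0.53 for Ciart, above 83.4%, 81.9%, 76.7% and 68.4% of the 14364 genes tested. For Nr1d2 and Per3 it was 0.31 and 0.33, above 35.1% and 39.5%. The spreads of Cry1, Per2, Tef and Cry2 were above 91.3%, 61.8%, 54.1% and 37.3% of the genes tested. The summed astrocyte markers moved with the high and low libraries: the 10 genes, none at 0, summed to 7901, 7817 and 6071 TPM on the control diet and to 7057, 2909 and 4772 TPM on the obesogenic diet. Gfap made up most of the sum in control library 1 (5157 TPM). Only 3 of the 10 (Gfap, Aqp4 and S100b) had the same 3 highest libraries as Nr1d1; the other 7 did not, Slc1a2 for example at 22.9 TPM in control library 1 and 84.2 TPM in control library 3. The part of astrocyte RNA in the values of Nr1d1, Dbp, Ciart and Per1 was not tested.

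Per2, the repressor gene that peaks after Nr1d1 and Dbp, had another order. It stood at 18.1, 17.7 and 24.2 TPM on the control diet and at 35.7, 14.8 and 19.4 TPM on the obesogenic diet. Control library 3, among the lowest for Nr1d1, was the highest control library for Per2. The ratio of Per2 to Nr1d1 TPM was 0.0964, 0.0997 and 0.339 on the control diet and 0.204, 0.190 and 0.252 on the obesogenic diet.

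Nr1d2, which encodes REV-ERB beta, stood at 81.2, 67.9 and 70.9 TPM on the control diet and at 106.9, 60.1 and 74.5 TPM on the obesogenic diet. It varied 1.78-fold over all libraries, against 2.64-fold for Nr1d1. Tef, the other D-box activator, stood at 128, 126 and 126 TPM on the control diet and at 171.5, 81.6 and 159.6 TPM on the obesogenic diet. Its control libraries were nearly equal, and its obesogenic libraries lay on both sides of them. A gene on the other strand overlaps Tef exons by up to 193 bases and was not analysed here. Per3, the third Period gene, stood at 7.09, 4.84 and 6.48 TPM on the control diet and at 8.25, 5.86 and 4.33 TPM on the obesogenic diet. For Per2, Per3, Nr1d2 and Tef obesogenic library 1 was highest. In that library the suprachiasmatic marker Vip, a neuropeptide of the brain's central clock, was at 204 TPM, against 2.90 to 6.97 TPM in control and 48.4 and 4.38 TPM in the other obesogenic libraries. All 10 tested markers of that list of 12 (Rora among them) had their highest value in this library, while Prok2 and Lhx1 were listed at 0 there. The part of such neurons in the clock gene values was not tested.

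The activator arm did not form a simple mirror image of these outputs. Arntl, the gene of BMAL1, stood at 5.68, 7.49 and 9.34 TPM on the control diet and at 12.1, 5.05 and 12.7 TPM on the obesogenic diet. Control library 3 and obesogenic library 3, low for Nr1d1, had the highest Arntl within their diets. As listed, obesogenic library 2 was low and obesogenic library 1 high for both Nr1d1 and Arntl. After rescaling without immunoglobulin genes, Arntl in obesogenic library 2 was at 7.63 TPM, within the control range of 7.09 to 11.6 TPM. Npas2, a partner of BMAL1, stood at 2.56, 4.29 and 3.29 TPM on the control diet and at 7.11, 4.44 and 7.09 TPM on the obesogenic diet. Clock, the other partner, measured 19.2, 11.1 and 15.3 TPM against 24.6, 13.3 and 13.6 TPM. Nfil3, the D-box repressor, measured 6.47, 9.47 and 9.35 TPM against 6.14, 16.9 and 11.5 TPM, with obesogenic library 1 lowest and obesogenic library 2 highest.

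**Figure D2:**
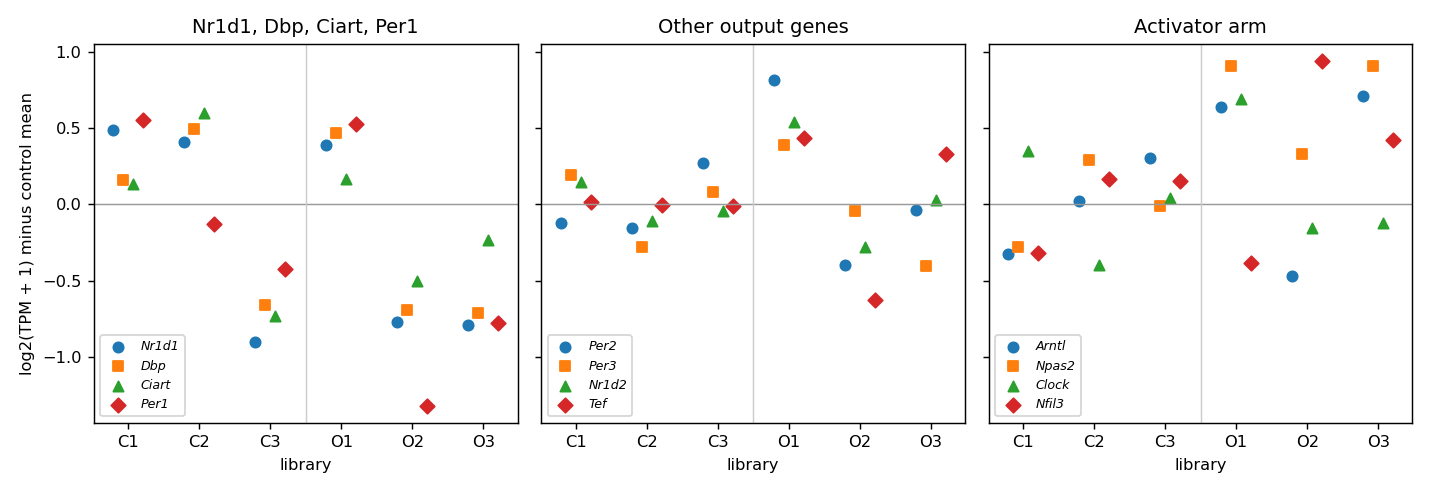
Log2(TPM + 1) minus the mean of the control libraries (y axis) by library (x axis; C, control; O, obesogenic) for 4 output genes with the same 3 highest libraries, 4 other output genes and 4 activator arm genes. In the left panel Nr1d1, Dbp and Ciart lie above 0 in C1, C2 and O1 and below 0 in C3, O2 and O3; in the right panel Arntl is at 0.31, 0.64 and 0.71 in C3, O1 and O3 and at most 0.021 in the others, while Npas2 is above 0 in every obesogenic library.

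Ratios within a library do not depend on that library's scaling. The ratio of Nr1d1 to Arntl TPM was 33.1, 23.7 and 7.63 for the control libraries in order and 14.5, 15.4 and 6.04 for the obesogenic ones. It varied 4.34-fold within control and 2.56-fold within obesogenic libraries, and control library 3 and obesogenic library 3 were the lowest of their diets. The ratio of Dbp to Arntl had the same lowest libraries, at 7.59, 7.27 and 2.57 on the control diet and 4.44, 4.63 and 1.81 on the obesogenic diet. The ratio of Nr1d1 to Npas2 was 73.6, 41.5 and 21.7 on the control diet and 24.6, 17.6 and 10.8 on the obesogenic diet, where only obesogenic library 1 overlapped control.

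Averages were taken over 8 outputs (the members without Cry1 and Cry2) and 4 activator arm genes (Arntl, Clock, Npas2 and the D-box repressor Nfil3). The output minus activator level relative to the control mean was 0.34, 0.083 and -0.42 log2 units for the control libraries in order. For the obesogenic ones it was 0.0018, -0.74 and -0.80. The diets overlapped, and their mean difference was -0.51 log2 units against a pooled within-diet SD of 0.42. With only the 5 outputs whose reference transcripts were all listed, the difference was -0.43. The libraries of each diet thus differed among themselves in the balance of output to activator arm transcripts. In obesogenic library 1 the means of outputs and of activator arm genes were both above control (0.47 and 0.47). There Nfil3 was at -0.38, against 0.64, 0.69 and 0.91 for Arntl, Clock and Npas2. In obesogenic library 2 the means were at -0.58 and 0.16. There Nfil3 (0.94) and Npas2 (0.33) lay above 0, and Arntl (-0.47) and Clock (-0.15) below. The activator arm means of both libraries thus depend on the inclusion of Nfil3. With 1 sampling point per nerve no phase was assigned to a library, and the part of the hour of collection in these differences was not tested.

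**Figure D3:**
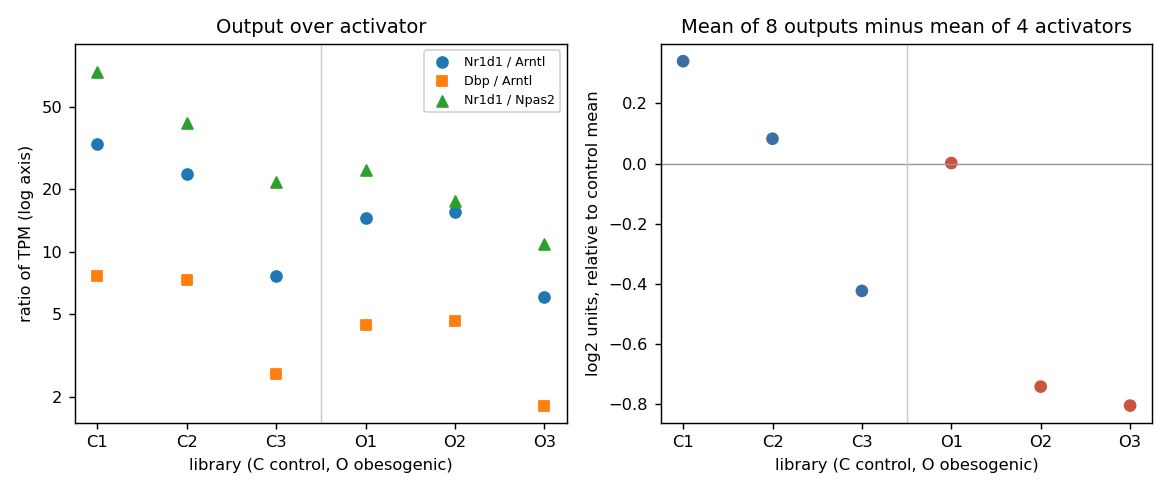
Left, ratios of TPM of an output to an activator gene (y axis, log scale) by library (C, control; O, obesogenic). Right, the mean of 8 outputs minus the mean of 4 activator arm genes, Nfil3 among them, relative to control (y axis, log2 units). Blue marks control and red obesogenic libraries. The Nr1d1 to Arntl ratio is lowest in C3 and O3, at 7.63 and 6.04, and the summary on the right spans -0.42 to 0.34 in control and -0.80 to 0.0018 in obesogenic libraries.

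For the diet comparison all genes were fitted together with limma on log2(TPM + 1), and p-values were adjusted by Benjamini-Hochberg over all 14364 genes. Of the 10 output genes 0 passed at 0.05, where 0.00696% of all genes tested passed (1 gene). At an unadjusted p under 0.05, 0 of 10 were below it, against 11% of all genes. The median log2 change of the 10 was -0.10 and that of all genes tested 0.08. Changes were negative for Per1 (-0.52, SE 0.50), Cry1 (-0.47, SE 0.67), Nr1d1 (-0.39, SE 0.47), Dbp (-0.31, SE 0.42), Ciart (-0.19, SE 0.36) and Per3 (-0.02, SE 0.32). They were positive for Cry2 (0.70, SE 0.32), Per2 (0.13, SE 0.34), Nr1d2 (0.10, SE 0.24) and Tef (0.04, SE 0.29). Adjusted p in limma ranged from 0.482 for Cry2 to 0.989 for Per3. These intervals are wide: the 95% interval for Nr1d1 ran from -1.48 to 0.70 and that for Nr1d2 from -0.47 to 0.66 log2 units. Of the 26 tested transcripts of these genes 0 passed (0.00565% of 35408 transcripts did), and 0 had an unadjusted limma p under 0.05 (8.46% of all did).

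**Figure D4:**
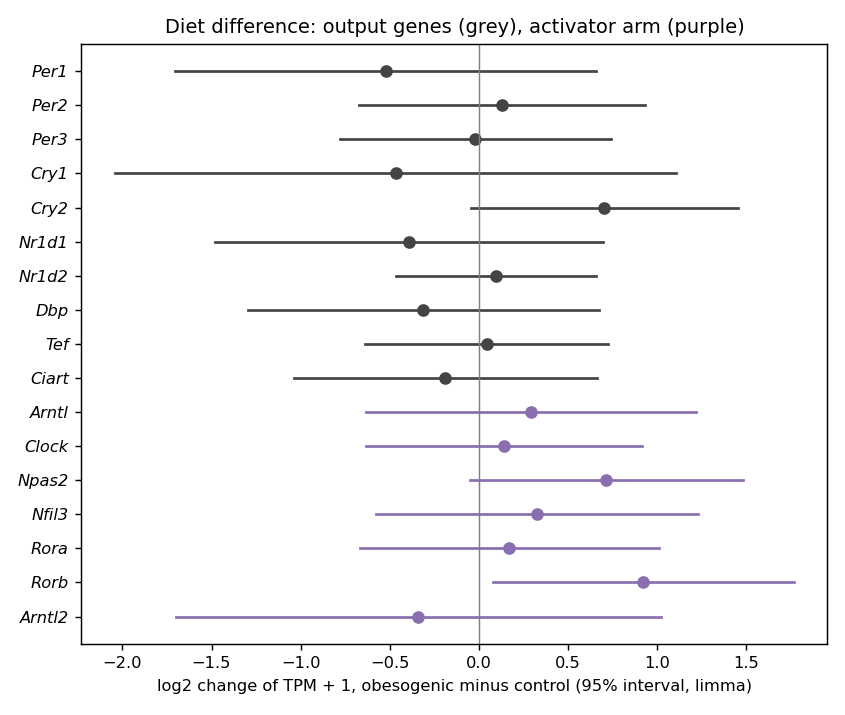
Log2 change of TPM + 1, obesogenic minus control (x axis; point, estimate; line, 95% interval from limma), for the 10 output genes in grey and 7 activator arm genes in purple. Every output gene's interval includes 0, and only that of Rorb, from 0.079 to 1.77, lies above 0; its adjusted p is 0.429.

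Cry2, the cryptochrome repressor, was the 1 output gene whose diets did not overlap. It stood at 4.23, 4.84 and 4.41 TPM on the control diet and at 11.2, 5.63 and 7.81 TPM on the obesogenic diet (adjusted p = 0.482 by limma). All obesogenic libraries were above all control libraries, as in 8.88% of all genes tested in that direction, 7.45% in the other and 16.3% in either, so 1 of 10 is near the background. Cry2-202, a protein-coding transcript, measured 1.22, 1.11 and 1.65 TPM against 2.48, 3.11 and 2.62 TPM, while Cry2-203 overlapped between diets. Cry2-204 was listed at 4.18 TPM in obesogenic library 1 and at 0 to 0.795 TPM elsewhere. An antisense gene overlaps Cry2 exons by up to 149 bases and was not analysed here. The neuron markers shared the direction of Cry2 in the diet means. All 14 had a higher obesogenic mean, 7 of them without overlap, where 8.88% of all genes tested were higher without overlap. Sncb was at 0 in control library 2 and obesogenic library 2. By library, every neuron marker was highest in obesogenic library 3 and Cry2 in obesogenic library 1. All 10 tested suprachiasmatic neuron markers were, like Cry2, highest in obesogenic library 1. The part of neurons in the Cry2 values was not tested. With limma's array weights Cry2 passed (log2 change 1.08, adjusted p = 0.019), in a fit that called 2064 genes.

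Cry1 was at the limit of the table. It was listed at 5.02, 0.439 and 2.07 TPM on the control diet and 0, 2.15 and 2.21 TPM on the obesogenic diet, all from retained-intron transcripts. Its protein-coding transcript listed here, Cry1-203, was at 0 in every library.

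**Figure D5:**
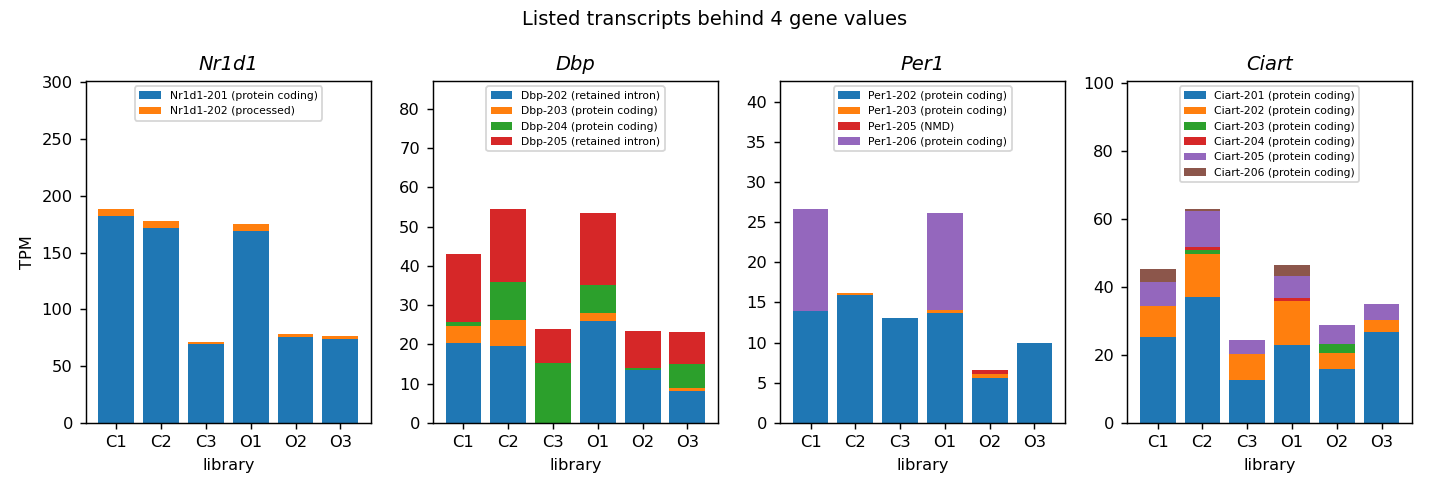
TPM of each listed transcript (stacked bars, y axis from 0; NMD, nonsense-mediated decay) of Nr1d1, Dbp, Per1 and Ciart by library (x axis; C, control; O, obesogenic). Nr1d1 is nearly all Nr1d1-201, Dbp is mostly the retained-intron transcripts Dbp-202 and Dbp-205, and Per1-206 appears only in C1 and O1, at 12.7 and 12.03 TPM.

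Of the 7 activator arm genes 0 passed by limma, and their median log2 change was 0.29. At an unadjusted limma p under 0.05, 1 of 7 was below it, against 11% of all genes tested. With array weights, in the fit that called 2064 genes, Rorb (1.45, adjusted p = 0.012 by limma) and Npas2 (0.88, adjusted p = 0.044) passed. Npas2 had a change of 0.72 (SE 0.33, adjusted p = 0.484 by limma) and Rorb, a retinoid-related orphan receptor gene, one of 0.92 (SE 0.36, adjusted p = 0.429). In both genes every obesogenic library was above every control library, 2 of 7 where 8.88% of all genes tested did so. The main transcript of Npas2, Npas2-201, overlapped between diets, at 2.56, 2.60 and 2.59 TPM against 5.66, 1.97 and 4.16 TPM. With the most abundant transcript only, the change of Npas2 was 0.38. Rorb stood at 4.40, 4.81 and 3.91 TPM on the control diet and at 14.9, 6.19 and 8.18 TPM on the obesogenic diet. The first reference transcripts of Rorb and Rora (Rorb-201 and Rora-201) were not analysed here. Arntl, Nfil3, Rora and Clock had changes of 0.29, 0.33, 0.17 and 0.14, and Arntl2 one of -0.34. Rorb and Npas2 were, like Cry2, highest in obesogenic libraries 1 and 3, where the neuron and suprachiasmatic sums were highest. In obesogenic library 3 Avp gave 4584 of the 4689 TPM of the suprachiasmatic list. There Vip, Grp, Nms and Prokr2 lay within the control range, Rgs16 and Rora below it, and Syt10, Six3 and Six6 above it. The part of neurons was not tested.

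Among 11 modifiers of the clock 0 passed by limma, with a median log2 change of 0.14. At an unadjusted limma p under 0.05, 2 of 11 were below it, against 11% of all genes tested. Gsk3b, a kinase that phosphorylates clock proteins, stood at 9.52, 10.5 and 12.1 TPM on the control diet and at 16.5, 16.6 and 16.1 TPM on the obesogenic diet, with no overlap (log2 change 0.58, SE 0.22, adjusted p = 0.424). Hlf, the third D-box activator beside Dbp and Tef, measured 77.8, 77.0 and 70.3 TPM against 63.5, 26.8 and 43.5 TPM, also with no overlap (log2 change -0.82, SE 0.30, adjusted p = 0.414). Hlf thus followed neither Dbp nor Tef, since its control library 3 lay close to the other controls. Of all genes tested, 8.88% were higher on the obesogenic diet without overlap, as Gsk3b was, and 7.45% were lower, as Hlf was. Timeless had a change of 0.65, and Fbxl21, an F-box protein gene, one of 0.62 (SE 0.54) with overlapping diets. With array weights Gsk3b (adjusted p = 0.045 by limma) and Fbxl21 (adjusted p = 0.028) passed.

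Of 16 genes that cycle in many tissues 0 passed, and their median was -0.04. At an unadjusted limma p under 0.05, 2 of 16 were below it, against 11% of all genes tested. Hlf is also in this list. Tns2 measured 120, 133 and 78.3 TPM against 71.9, 64.1 and 50.04 TPM (log2 change -0.80, SE 0.25, adjusted p = 0.359 by limma). Both Tns2 and Hlf were lower in every obesogenic library, as were 7.45% of all genes tested. So were 10 of 12 meningeal fibroblast markers, none at 0, with sums of 1979 to 2943 TPM against 747 to 934 TPM. The same held for 9 of 11 tested endothelial and pericyte markers, with sums of 1243 to 1866 TPM against 664 to 735 TPM (Pdgfrb was listed at 0 in all libraries). The part of these cells in the values of Tns2 and Hlf was not tested. Por, the cytochrome P450 reductase gene, and Cdkn1a, a cell cycle inhibitor gene, had changes of -0.29 and 0.52. Usp2, a clock-driven deubiquitinase gene, stood at 47.3, 75.8 and 54.5 TPM on the control diet and at 76.7, 53.6 and 64.4 TPM on the obesogenic diet; it was named after its values were seen. Its 3 highest libraries were not those of Nr1d1.

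Acute stimuli induce a set of genes along with Per1. Of the other 14 genes of this list 13 were tested and 0 passed by limma, with a median of -0.09. At an unadjusted limma p under 0.05, 0 were below it, against 11% of all genes tested. Egr1, an immediate early gene, stood at 20.9, 17.5 and 15.8 TPM on the control diet and at 24.6, 21.8 and 23.8 TPM on the obesogenic diet (log2 change 0.36, adjusted p = 0.583). Nr4a1 and Dusp1 had changes of 0.26 and -0.32, and Junb of 0.50, with 71.2 TPM in obesogenic library 2 and 23.6 to 31.1 TPM elsewhere. Obesogenic library 2, the lowest for Per1, was thus the highest for Junb. In that library the lymphocyte list (10 genes) summed to 2720 TPM, against 9.34 to 26.7 TPM elsewhere. The microglia and macrophage list (10 genes) summed to 2422 TPM, against 587 to 921 TPM elsewhere, though its members Cd163 and F13a1 were lowest there. The part of immune cells in the Junb and Nfil3 values of that library was not tested. Nf1, deleted or mutated in both groups, was listed at 3.67, 3.10 and 4.28 TPM on the control diet and 2.71, 1.549 and 2.92 TPM on the obesogenic diet (adjusted p = 0.647 by limma).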

How the data were processed

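The authors deposited 1 table of transcript abundances in TPM, with a column for each of 6 mouse optic nerve libraries. Per the labels' protocols, polyA RNA was extracted with a NucleoSpin RNA Plus XS kit and sequenced after the SMART-Seq mRNA kit. Tools listed in the submitters' processing notes, with no role stated, are featureCounts 2.0.3, Subread, STAR 2.7.9a and DRAGEN; which of them gave TPM, and the build and annotation, is not given in the sources used here. Of the 109383 transcripts, 98.9% have an identifier in GENCODE M21, which was used for names and overlaps. Repeated lines of a transcript (415 transcripts, identical values) were counted once and TPM were summed per gene. TPM keeps no depth, so counting intervals were left out.

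The 14364 genes reaching 1 TPM in 3 or more libraries entered a limma 3.58.1 fit of log2(TPM + 1) (R 4.3.3; lmFit and eBayes with trend), obesogenic minus control, two-sided, Benjamini-Hochberg over all genes, threshold 0.05. Such changes understate those of low genes. An exact permutation test of 3 against 3 libraries cannot go below 0.1 and was not used. The genes named are the 10 output genes, the activator arm, up to 4 genes of smallest unadjusted p per other list, the 5 genes most like Dbp, Thra and Nf1. Members, lists and rules were chosen with earlier results of these data known; some genes of the lists are not reported here and were left out of their counts. Alternatives covered the pseudocount, filter, scaling, sample number as a block, array weights, transcript choice and removal of each library; those on likeness, and the restriction to 5 outputs, were chosen after seeing the data. Figures used matplotlib 3.10.9.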

Additional observations from a re-analysis of the deposited data

How the results depend on the processing

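Over 16 alternatives the output genes gave 158 fits; 1 passed the threshold (Cry2 with array weights) and 17 reversed a change that had not passed. Cry2 kept its direction in all of them, and each of the other 9 genes reversed at least once. Array weights, which give libraries unequal influence, turned Per1 to 0.33, Per3 to 0.32, Nr1d1 to 0.18, Dbp to 0.27 and Ciart to 0.045, and Nfil3 to -0.27 and Cdkn1a to -0.045; they called 1 output gene and 2064 genes in all. Rescaling without immunoglobulin genes turned Per3 to 0.071, and moved the median of all genes from 0.08 to 0.17. With the most abundant transcript only, Dbp was at 1.01 (Dbp-202, listed at 0 in control library 3), Timeless at -0.18, Por at 0.23 and Nf1 at 0.18, and 0 output genes had diets without overlap. No gene passed without the filter or with protein-coding transcripts only (0 and 0). With each library left out in turn, the changes ranged from -0.21 to 0.39 for Per2, -0.22 to 0.17 for Per3, -0.99 to 0.090 for Cry1, -0.13 to 0.28 for Nr1d2, -0.15 to 0.38 for Tef and -0.55 to 0.11 for Ciart. Among activators they ranged from -0.14 to 0.32 for Clock, -0.23 to 0.40 for Rora and -0.75 to 0.17 for Arntl2. The number of genes called ranged from 0 to 914 (914 without obesogenic library 2), output genes called stayed at 0, and 1 to 3 output genes had diets without overlap (3 without obesogenic library 1, 2 without control library 3 or obesogenic library 2, where 26.5%, 25.4% and 43.4% of all genes tested had none). The output minus activator difference ranged from -0.77 (without obesogenic library 1) to -0.34 (without control library 1), and with the most abundant transcript only it was -0.28. The cause of these shifts was not tested.

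Whether the sample numbers in the titles pair the libraries could not be settled. Deviations of same-numbered libraries correlated at 0.0079, 0.18 and 0.13 across genes. With 3 libraries per diet such deviations sum to 0 within a diet, which ties the correlations to each other. Each of control libraries 2 and 3 correlated best with its own number, while control library 1 was near 0 with every obesogenic library. With the number as a replicate block 1 gene and 0 output genes passed. The SE fell from 0.47 to 0.30 for Nr1d1 and from 0.50 to 0.33 for Per1, and it rose for Per3, Cry1 and Cry2.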

Other observations

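With Nr1d1 in place of Dbp as the reference, a choice made after the values were seen, Dbp ranked 1 of 8171 genes in likeness, Ciart 16 and Per1 63, and the nearest non-member genes were Mfsd3, Xrcc3, Tspan9, Igfbp5 and Gata2. With each library left out in turn, Dbp ranked between 1 and 30, Ciart between 14 and 404 and Per1 between 46 and 285, with the last places (30, 404 and 285) all without control library 3. Igfbp5, an IGF-binding protein gene, stood at 241, 198 and 142 TPM on the control diet and at 213, 101 and 94.9 TPM on the obesogenic diet. Nr1d1 exceeded its paralog Nr1d2 in TPM by 2.32, 2.62 and 1.01 times for the control libraries in order and 1.64, 1.30 and 1.03 times for the obesogenic ones.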
